A study of Mus musculus with 4 samples.

Results

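Keratin 5 (Krt5), keratin 14 (Krt14), keratin 15 (Krt15), keratin 17 (Krt17), p63 (Trp63), the epidermal growth factor receptor (Egfr), intercellular adhesion molecule 1 (Icam1), P-cadherin (Cdh3) and Perp are markers of horizontal basal cells, the reserve stem cells of the olfactory epithelium. Their rows were taken by gene symbol, and all 9 were found among the 23337 genes listed in each of 4 RNA-seq libraries. Each library came from 1 mouse and held sorted cells that carried the red fluorescent protein Tomato. The mutant cells were presumptively Lmnb1-/- and the control cells Lmnb1+/-, with 2 libraries of each. The gene for lamin B1 was thus presumed deleted on both alleles in mutant cells and on a single allele in control cells. By the study's antibody staining, a small minority of Tomato-positive cells in mutant tissue still held lamin B1. In every mouse, control mice included, a Cre transgene driven by the Keratin 5 promoter (K5Cre) recombined a floxed Lmnb1 allele (exon 2 flanked by loxP sites) and the Ai9 reporter at R26. All mice were of mixed strain and had received 2 injections of 50 mg/kg methimazole, which destroys the epithelium. They had recovered for 4 weeks, and ages were not given in the labels. The mice were treated in 2 experimental groups that differed in parents, age, sex and treatment. By the study's methods, sample preparation and sequencing were also shared within a group. Each group gave a control and a mutant library. Control 1 and mutant 1 therefore belong to experimental group 1, and control 2 and mutant 2 to experimental group 2.

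Horizontal basal cells lie flat on the basal lamina of the olfactory epithelium and are largely quiescent until the tissue is injured. After injury they divide and can give rise to neurons, sustentacular (supporting) cells and gland cells. They carry the type II keratin 5 paired with type I keratins such as keratin 14, and the transcription factor p63 holds them in the stem cell state. As the Keratin 5 promoter drives Cre, the Tomato-positive population comprises horizontal basal cells and the cells descended from them, and a marker level in these libraries is an average over that mixture. Keratin 5 is also abundant in skin, another place where the transgene is active.

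Krt14 (chr11:100203162-100207548), Krt15 (chr11:100131758-100135928) and Krt17 (chr11:100256217-100261029) lie on the minus strand of one type I keratin cluster (mm10), and Krt5 (chr15:101707070-101712898, minus strand) lies in the type II cluster. Trp63 (chr16:25683763-25892102), Egfr (chr11:16752203-16918158), Icam1 (chr9:21015985-21028817), Cdh3 (chr8:106510891-106557297) and Perp (chr10:18845020-18857073) are on the plus strand. Promoter windows from 250 bases before to 50 bases after the RefSeq start (GRCm38.p6, the same build) are shown for 3 genes whose RNA moved differently below, namely Krt5 as the gene whose promoter marks the cells, Egfr as a gene higher in mutant cells, and Icam1 as an adhesion gene that differed between experimental groups in the direction opposite to Egfr. The window of Krt5 is chr15:101712856-101713155 (minus strand), that of Egfr chr11:16751953-16752252 (plus strand) and that of Icam1 chr9:21015690-21015989 (plus strand). Capitals mark matches to 5 motifs searched on both strands, which were the AP-1 site TGANTCA, the GC box GGGCGG, the TATA box TATAAA, an NF-kB-like site GGANNTTCC and the p53-family half-site.
Krt5: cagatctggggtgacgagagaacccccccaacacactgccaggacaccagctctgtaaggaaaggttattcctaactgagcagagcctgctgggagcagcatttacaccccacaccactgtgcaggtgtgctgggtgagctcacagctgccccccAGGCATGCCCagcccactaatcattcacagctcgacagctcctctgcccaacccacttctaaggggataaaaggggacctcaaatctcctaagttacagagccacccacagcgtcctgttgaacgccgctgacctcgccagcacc
Egfr: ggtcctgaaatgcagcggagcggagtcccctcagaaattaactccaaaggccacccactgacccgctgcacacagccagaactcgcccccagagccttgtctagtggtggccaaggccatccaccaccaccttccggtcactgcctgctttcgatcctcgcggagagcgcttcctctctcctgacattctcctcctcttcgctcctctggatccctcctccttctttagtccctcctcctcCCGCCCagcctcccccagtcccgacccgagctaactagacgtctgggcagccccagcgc
Icam1: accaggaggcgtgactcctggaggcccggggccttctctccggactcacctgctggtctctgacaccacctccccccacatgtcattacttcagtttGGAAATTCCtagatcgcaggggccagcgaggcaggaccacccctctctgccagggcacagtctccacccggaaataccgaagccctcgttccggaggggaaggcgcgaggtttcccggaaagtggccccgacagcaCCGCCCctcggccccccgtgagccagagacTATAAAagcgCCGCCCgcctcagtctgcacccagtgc
The Krt5 window held 1 p53-family half-site, from -95 to -86 relative to the start, and 8.36% of all 32851 windows in the table held at least 1. The Egfr window held 1 GC box (-9 to -4), a motif found in 35.7% of windows. In the Icam1 window there was an NF-kB-like site (-153 to -145, 4.26% of windows). It also held 2 GC boxes, on either side of the RefSeq start (-17 to -12 and 24 to 29), and a TATA box (14 to 19, 13.6% of windows). The GENCODE start of Icam1 (21015985) lies downstream of this RefSeq start, and all of these Icam1 matches lie before it. No AP-1 site was matched in these windows (7.81% of all windows). The table's Krt14 window lies inside the gene as annotated in GENCODE and is not printed, and the windows of Krt15, Krt17, Trp63, Cdh3 and Perp are not shown. A match describes these letters only, since no factor binding was measured.

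Reads assigned to genes ranged from 14833396 to 23704638 per library, so that 3 counts, taken as the detection floor, equal 0.127 to 0.202 CPM (counts scaled to a library total of 1000000 assigned reads). The floor covers counting error only. All 9 markers were far above it, with at least 737 counts in every library. Mutant 1 stood apart from the other libraries, with 39.4% of its uniquely aligned reads outside annotated genes compared with 22.1 to 24.9% in the others, and with 1603 genes at 0 counts compared with 5173 to 6053. A background estimated from genes at 0 in the other libraries amounted to at most 0.761% of any marker's count in mutant 1, the value for Egfr. Alignments at more than 1 place, which were not counted, numbered 67710764 and 62182762 in the libraries of experimental group 1 and 10308536 and 6757456 in those of group 2. Lmnb1 itself, counted over the whole gene and not only the floxed exon, was at 20.1 and 18.5 CPM in control and 14.7 and 10 CPM in mutant libraries (log2 fold change -0.72, SE 0.31, edgeR adjusted p = 0.195).

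To compare levels between genes, CPM were divided by the length of the merged annotated exons in kb. Krt5 was the highest of the 9 markers in every library, at 463 and 281 CPM per kb in control 1 and control 2 and 668 and 370 CPM per kb in mutant 1 and mutant 2. In CPM without division by length, Krt5 ranked 69th and 142nd among all genes in the control libraries and 38th and 91st in the mutant libraries. Krt17 (191 to 498 CPM per kb) and Krt14 (169 to 484) followed, with Krt17 above Krt14 in 4 of 4 libraries although their ranges overlapped each other and that of Krt5. Perp was next at 93.4 to 144 CPM per kb, below every value of the 3 leading keratins. Krt15 (21.3 to 78.5) and Trp63 (19.4 to 41.7) exchanged places between libraries, each being higher in 2 of 4. Cdh3 (8.34 to 17.0), Icam1 (8.67 to 16.5) and Egfr (6.06 to 14.1) formed the lowest set, and neighbours in that order did not separate beyond their spread. Divided by the longest transcript in place of merged exons, Icam1 was above Cdh3 in every library. Trp63 was then above Krt15 in every library except mutant 1 (49.7 compared with 81.6 CPM per kb), though by little in control 1 (30.4 compared with 29.7). Type I keratins pair with type II keratins in filaments, and the summed level of Krt14, Krt15 and Krt17 was 149% and 136% of the Krt5 level in control libraries and 159% and 139% in mutant libraries, on the scale per length.

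**Figure D1:**
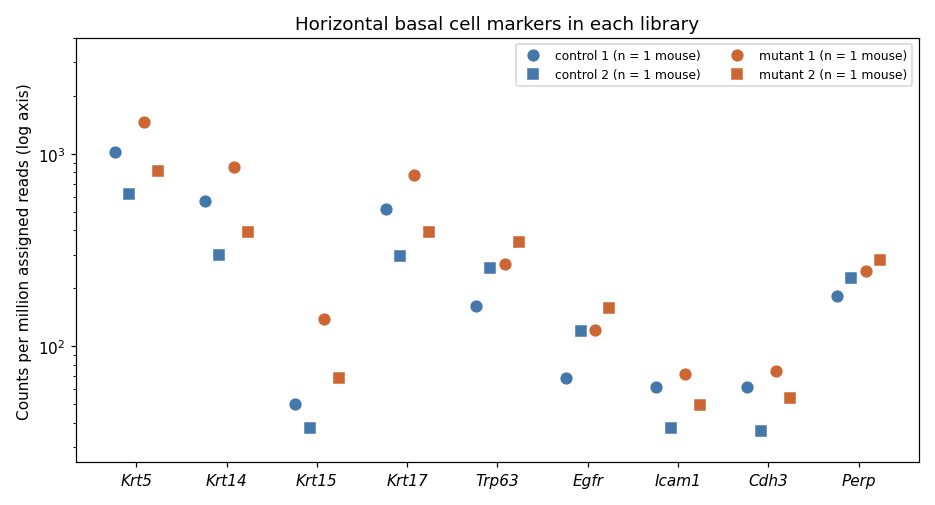
CPM (log axis) of the 9 horizontal basal cell markers, with 1 point per library (blue, control; orange, mutant; circles, experimental group 1; squares, experimental group 2). In each experimental group the mutant point lies above its control for every marker, and for Krt5, Krt14, Krt17, Icam1 and Cdh3 both squares lie below both circles.

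The first comparison asked how the stem cell markers differ between mutant and control cells. All 9 markers had a higher level in the mutant than in the control of the same experimental group, in both groups, which was the case for 29.7% of the 15438 genes tested. The median log2 fold change of the 9 was 0.43, compared with -0.01 over all genes tested. Of the 9, 2 passed the test in the model with genotype and experimental group (edgeR likelihood-ratio test, adjusted p below 0.05), namely Krt15 and Egfr, both higher in mutant cells, while 1.28% of all tested genes were called higher. None of the 9 was called lower, compared with 4.30% of all genes, and 4 of the 9 were higher at an unadjusted p under 0.05, as were 6.32% of all tested genes. In CPM, both mutant libraries were above both control libraries for Krt15, Trp63, Egfr and Perp (4 of the 9). The same held for 15.2% of all tested genes. These CPM leave out the TMM scaling factors of the model, 0.983 in control 2 and 1.045 in mutant 1. With these factors, mutant 1 would lie below control 2 for Trp63 and Egfr. These are bulk samples, and a larger share of horizontal basal cells and more of the RNA per cell cannot be told apart.

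Krt15, a type I keratin of basal layers of stratified epithelia, showed the largest change among the markers. Its level was 50.4 and 37.6 CPM in control 1 and control 2 and 139 and 68.2 CPM in mutant 1 and mutant 2. Both mutant libraries were above both controls, with mutant 1 the highest of all. Krt15 was 2.16-fold higher in mutant cells (log2 fold change 1.11, SE 0.18, edgeR adjusted p = 4.53e-07), and mutant exceeded control by 1.36 on the log2 scale in experimental group 1 and by 0.84 in group 2. The ratios differed between the experimental groups, a difference that could not be tested with 1 library per arm.

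Krt5, the keratin whose promoter drives Cre, was at 1018 and 617 CPM in control 1 and control 2 and at 1469 and 813 CPM in mutant 1 and mutant 2. Mutant 2 was below control 1, so that the genotypes overlapped, while each mutant exceeded the control of its own group. The log2 fold change was 0.41 (SE 0.27, 95% interval -0.12 to 0.94, edgeR adjusted p = 0.514), and the ratios were 0.43 and 0.38 on the log2 scale in groups 1 and 2. Krt14, its usual type I partner in basal cells, measured 571 and 298 CPM in control and 851 and 392 CPM in mutant libraries. Krt17, a type I keratin of skin appendages and injured epidermis, measured 519 and 296 CPM in control and 772 and 393 CPM in mutant libraries. Both had the pattern of Krt5, with mutant 2 below control 1. The log2 fold changes were 0.43 (SE 0.25, edgeR adjusted p = 0.413) for Krt14 and 0.44 (SE 0.25, edgeR adjusted p = 0.398) for Krt17, and neither passed the test.

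Trp63 encodes p63, the transcription factor required to form horizontal basal cells and to keep them from differentiating. Its level was 163 and 256 CPM in control libraries and 267 and 350 CPM in mutant libraries. In CPM both mutant libraries were above both controls, although mutant 1 exceeded control 2 by little, and not with the TMM factors. The log2 fold change was 0.53 (SE 0.22, 95% interval 0.09 to 0.96), with an unadjusted p of 0.0173 that did not hold after adjustment over all genes (edgeR adjusted p = 0.17). Egfr, a receptor tyrosine kinase through which epidermal growth factor stimulates basal cell division, was at 68.6 and 120 CPM in control and at 121 and 159 CPM in mutant libraries. Control 2 and mutant 1 were almost level, and the separation of the genotypes rested on the comparison within experimental groups. Egfr was 1.47-fold higher in mutant cells (log2 fold change 0.56, SE 0.18, edgeR adjusted p = 0.0435), with log2 ratios of 0.72 in group 1 and 0.39 in group 2.

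The adhesion markers Icam1, Cdh3 and Perp did not pass the test. Icam1, the cell surface ligand of leukocyte integrins, was at 61.5 and 37.8 CPM in control libraries and at 72.1 and 49.7 CPM in mutant libraries. Cdh3, the cadherin of basal epithelial layers, was at 61.3 and 36.6 CPM in control libraries and at 74.4 and 54.1 CPM in mutant libraries. For both genes mutant 2 was below control 1, and the genotypes overlapped. The log2 fold changes were 0.25 for Icam1 (SE 0.17, 95% interval -0.08 to 0.59, edgeR adjusted p = 0.534) and 0.36 for Cdh3 (SE 0.18, 95% interval 0.02 to 0.71, edgeR adjusted p = 0.282). On the log2 scale, mutant exceeded control by 0.13 in group 1 and 0.38 in group 2 for Icam1, and by 0.18 and 0.55 for Cdh3. Perp, a desmosome-associated membrane protein and a known target of p53 and p63, was at 182 and 227 CPM in control libraries and at 246 and 280 CPM in mutant libraries. Both mutants were above both controls, yet the difference of 0.31 on the log2 scale (SE 0.21) did not pass the test (edgeR adjusted p = 0.538).

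**Figure D2:**
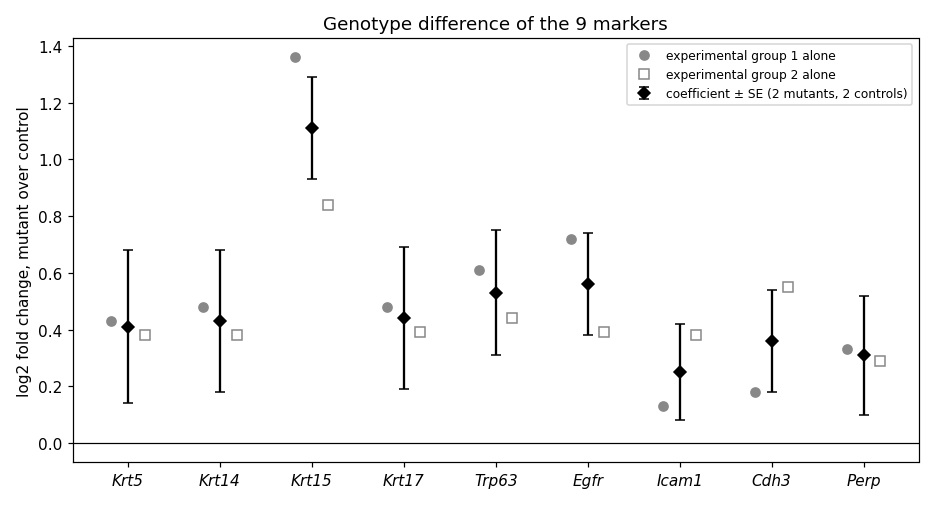
Genotype difference of each marker on the log2 scale, with the model coefficient ± SE (black diamonds, 2 mutants and 2 controls) and the ratio within experimental group 1 (grey circles) and group 2 (open squares), each from 1 mutant and 1 control. All points lie above 0, and Krt15 lies highest in both groups.

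The calls depended on the method for most of the markers. DESeq2 called 6 of the 9 higher, while it called 1.86% of the 9452 genes to which it gave an adjusted p higher, adding Krt5 (adjusted p = 0.0105), Krt14 (0.0122), Krt17 (0.0116) and Trp63 (0.00560) with almost the same fold changes. Over all 13 tested alternatives the adjusted p ranged from 0.0105 to 1.00 for Krt5, from 0.0122 to 1.00 for Krt14, from 0.0116 to 1.00 for Krt17 and from 0.00560 to 1.00 for Trp63. Egfr lost its call with the quasi-likelihood test of edgeR (adjusted p = 0.0680) and when the HTSeq tally lines were kept as genes (edgeR adjusted p = 0.0526). It kept the call with DESeq2 (adjusted p = 0.0280), within a range from 0.0127 to 1.00. Krt15 passed with both of these tests (adjusted p = 0.0128 and 2.58e-05), within a range from 3.31e-07 to 1.00. When any single library was left out, which requires a model without experimental group, neither Krt15 nor Egfr passed. Krt15 then had a log2 fold change of 1.41 without control 1, 1.01 without control 2, 0.60 without mutant 1 and 1.60 without mutant 2 (edgeR adjusted p = 0.752 to 1.00). Egfr had 0.19, 1.02, 0.73 and 0.30 in the same order (edgeR adjusted p = 0.862 to 1.00). Icam1, Cdh3 and Perp passed in none of the alternatives.

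**Figure D3:**
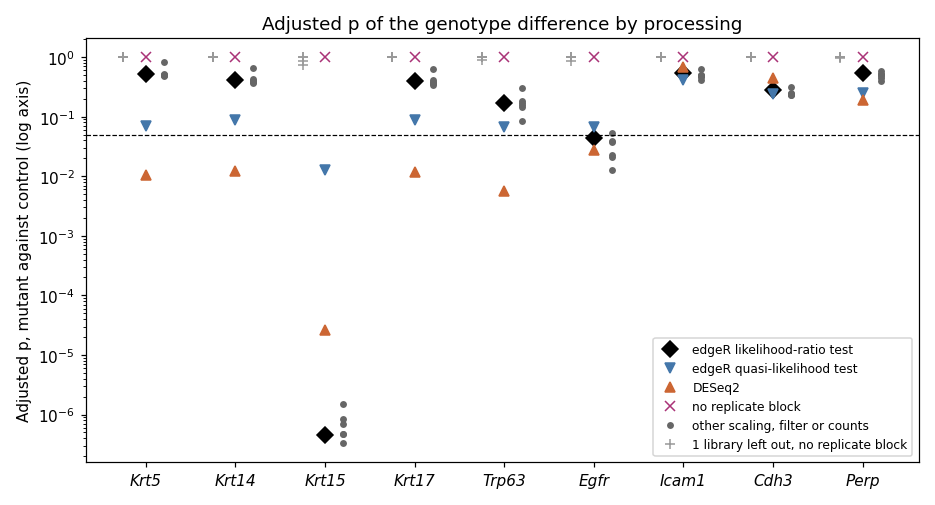
Adjusted p of the genotype difference (log axis) for each marker under every processing alternative with a test, where the dashed line marks 0.05. Krt15 lies below the line with each test that keeps the experimental groups, Egfr lies near it, and Krt5, Krt14, Krt17 and Trp63 fall below it with DESeq2 alone.

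The second comparison asked how the markers differ between the experimental groups, over both genotypes. The 8 markers called moved in 2 directions. The 4 keratins, Icam1 and Cdh3 were lower in group 2 (6 of 9, edgeR adjusted p below 0.05), while 14.0% of all tested genes were lower. Trp63 and Egfr were higher in group 2 (2 of 9), while 17.7% of all tested genes were higher, and Perp did not pass (log2 fold change 0.28, SE 0.21, edgeR adjusted p = 0.333). Krt14 fell the most, from 571 and 851 CPM in group 1 to 298 and 392 CPM in group 2, a fold change of 0.500 (log2 fold change -1.0, SE 0.25, edgeR adjusted p = 0.000534). Krt17 (log2 fold change -0.86, edgeR adjusted p = 0.00284), Krt5 (-0.76, adjusted p = 0.0202) and Krt15 (-0.70, adjusted p = 0.000746) fell alongside it. The adhesion genes Icam1 (-0.59, edgeR adjusted p = 0.00332) and Cdh3 (-0.57, adjusted p = 0.00630) fell by less. In Krt5, Krt14, Krt17, Icam1 and Cdh3 both libraries of group 2 were below both libraries of group 1, as in 32.3% of all tested genes.

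In the opposite direction, Egfr rose from 68.6 and 121 CPM in group 1 to 120 and 159 CPM in group 2 (log2 fold change 0.63, SE 0.18, edgeR adjusted p = 0.00335). Trp63 rose from 163 and 267 CPM to 256 and 350 CPM (log2 fold change 0.55, SE 0.22, edgeR adjusted p = 0.0421). In CPM, control 2 was slightly below mutant 1 in both genes, so that the experimental groups overlapped. On this scale 0 of the 9 markers had both group 2 libraries above both group 1 libraries, compared with 29.7% of all tested genes. The TMM factors of the model (0.983 in control 2, 1.045 in mutant 1) would put control 2 above mutant 1 in both genes. Their experimental groups would then not overlap. The call for Trp63 was lost when a background was subtracted from mutant 1 (edgeR adjusted p = 0.0567, within a range from 0.00184 to 0.376 over the alternatives). Parents, age, sex and treatment all differ between the experimental groups. Sample preparation and sequencing also went by group in the study's methods. None of these factors can be told apart.

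Counts of closely related genes depend on how reads with several alignments are treated, and the libraries of group 1 held far more of these than those of group 2. As a measure of this, every 50-base window of each marker's annotated transcripts was compared with the transcripts of all other genes. Of these windows, 12.2% were shared for Krt5, most often with Krt6a, 13.9% for Krt14, most often with Krt16, 3.99% for Krt17 and 0.640% for Krt15. For Icam1, 13.1% were shared, mainly with the antisense gene Gm47079, whose exons overlap 11.7% of the Icam1 exons, and the strand setting of the counting is not given in the sources used here. Egfr shared 0.231% of windows, and Trp63, Cdh3 and Perp shared none. The part of multiple alignments in the differences between experimental groups was not tested for any marker.

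**Figure D4:**
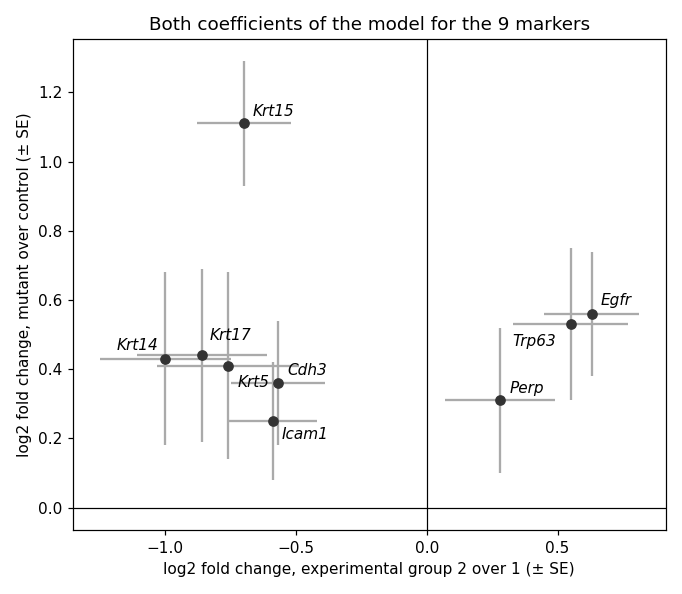
Model coefficients of the 9 markers on the log2 scale, with experimental group 2 over 1 on the horizontal axis and mutant over control on the vertical axis (bars, SE, 4 libraries). The keratins, Icam1 and Cdh3 lie to the left of 0, Trp63, Egfr and Perp to the right, and all 9 lie above 0 on the genotype axis.

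Counts were also expressed as a percentage of the Krt5 count in the same library, which removes the scaling of the library. Krt14 was at 56.1% and 58.0% of Krt5 in control 1 and mutant 1 and at 48.3% and 48.2% in control 2 and mutant 2. Krt17 was at 51.0% and 52.6% in group 1 and at 48.0% and 48.3% in group 2. Within an experimental group, both type I keratins thus kept nearly the same proportion to Krt5 in mutant and control. Krt15 did not, at 4.95% and 6.09% of Krt5 in the controls and 9.44% and 8.39% in the mutants, with both mutants above both controls. As a share of the 3 type I keratins per length, Krt15 made up 4.15% and 5.57% in control libraries and 7.40% and 7.49% in mutant libraries.

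Trp63 was at 16.0% and 18.2% of Krt5 in group 1 and at 41.4% and 43.1% in group 2, and the genotypes within a group lay close together. Egfr had the same division, at 6.74% and 8.25% in group 1 and at 19.4% and 19.6% in group 2. Perp stood at 17.9% and 16.7% in group 1 and at 36.7% and 34.5% in group 2. For these 3 genes the proportion to Krt5 was set apart by experimental group far more than by genotype. Krt5 itself was lower in group 2 (log2 fold change -0.76), which by itself raises each proportion there. The change of Perp alone between experimental groups was not called (0.28, edgeR adjusted p = 0.333). Egfr was at 42.0% to 46.9% of the Trp63 count in all 4 libraries, and Cdh3 at 96.8% to 109% of the Icam1 count. These proportions are descriptions of 4 libraries and were not tested.

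**Figure D5:**
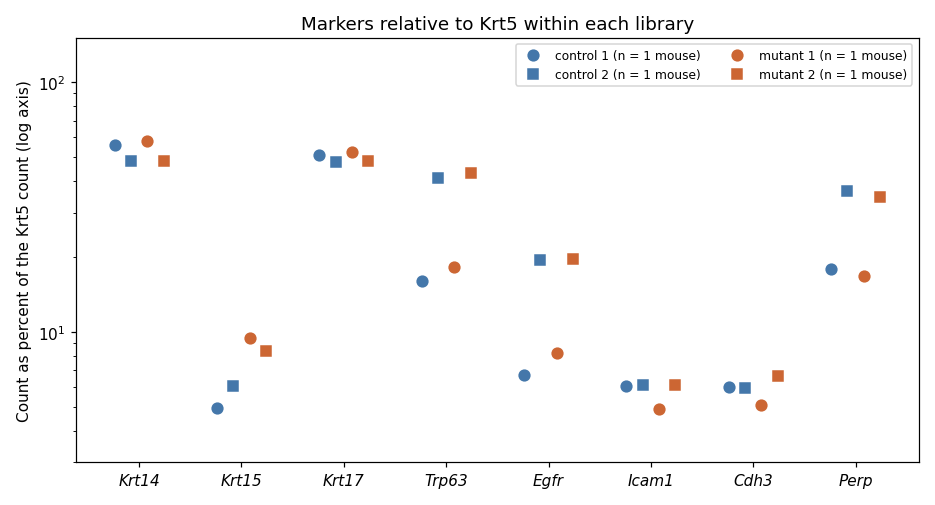
Count of each marker as a percentage of the Krt5 count in the same library (log axis), with 1 point per library (blue, control; orange, mutant; circles, experimental group 1; squares, experimental group 2). Krt15 separates by colour, Trp63, Egfr and Perp separate by shape, and Krt14 and Krt17 lie between 48.0% and 58.0% in all libraries.

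Genes that act with the markers were examined in lists. Counts of listed genes at an unadjusted p under 0.05 (edgeR) take both directions. Over all 15438 tested genes, 2460 were under this value in edgeR. Among 20 genes of hemidesmosomes, desmosomes and the basement membrane, the median log2 fold change between genotypes was 0.34 and 17 of 20 were positive. DESeq2 called Dsp, Dsc3, Itgb4, Col17a1 and Lamb3 higher in mutant cells, and none of these 5 passed in edgeR. Itga6 and Itgb4, the subunits of the hemidesmosomal integrin, differed by 0.29 and 0.44 on the log2 scale (adjusted p = 0.424 and 0.270 in edgeR). Of 13 other epithelial keratins, 9 passed the expression filter and 1 the test, Krt23, at 43.2 and 153 CPM in control and 95 and 208 CPM in mutant libraries (log2 fold change 0.73, SE 0.21, edgeR adjusted p = 0.0129). Krt8 and Krt18, the keratin pair of sustentacular cells, differed by 0.25 and 0.26 on the log2 scale (adjusted p = 0.740 and 0.736 in edgeR).

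Keratin 6a is a keratin that horizontal basal cells take on when they are activated by injury. Krt6a was at 0 and 2.95 CPM in control 1 and control 2 and at 0.677 and 0 CPM in mutant 1 and mutant 2, and was too low to be tested. Of 11 genes of the activated state, 6 were tested and none passed in edgeR (1 at an unadjusted p under 0.05), nor did the 1 to which DESeq2 gave an adjusted p, with a median log2 fold change of -0.34. The list had 53.8 and 85.9 summed CPM in the control libraries and 58.2 and 52.5 in the mutant libraries. Of 13 genes of the p53 family and p63 targets, none passed in edgeR (median 0.22, 4 at an unadjusted p under 0.05), nor did any of the 12 with an adjusted p in DESeq2. They included Trp73 (log2 fold change 0.24, edgeR adjusted p = 0.868) and Jag2, a Notch ligand (0.09, edgeR adjusted p = 0.932).

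Around Egfr, 14 of 16 genes of the epidermal growth factor family and its signalling were tested and none passed in edgeR (median 0.16). Of these, 5 were at an unadjusted p under 0.05 in either direction, beside 2460 of all 15438 tested genes. None of the 9 with an adjusted p in DESeq2 passed. The Egfr dimerisation partner Erbb2 did not pass either, at a log2 fold change of 0.40 with an SE of 0.16 (edgeR adjusted p = 0.145). The ligand Hbegf was low, at 3.04 to 7.20 CPM (0.12, edgeR adjusted p = 0.966). None of 6 cadherin junction genes passed in edgeR (median 0.06, 0 at an unadjusted p under 0.05), including Cdh1, the E-cadherin gene, at 0.44 (SE 0.23, edgeR adjusted p = 0.322), the only 1 of the 6 called higher by DESeq2. None of 8 Icam1 partners and relatives passed in edgeR (median 0.02, 0 at an unadjusted p under 0.05), nor did any of the 3 with an adjusted p in DESeq2. Among 6 regulators of basal stem cells, 1 passed, the transcription factor Pax6, at 40.9 and 66.1 CPM in control and 61.6 and 95.3 CPM in mutant libraries (log2 fold change 0.50, SE 0.16, edgeR adjusted p = 0.0435). Sox2 (0.46, edgeR adjusted p = 0.147) and the Notch target Hes1 (0.26, adjusted p = 0.483) did not pass, while DESeq2 called Sox2 and not Pax6.

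Markers of other cell types moved with genotype in the same libraries. Over all tested genes, edgeR called 4.30% lower and 1.28% higher in mutant cells. All 9 mature neuron markers fell in mutant cells with edgeR (median log2 fold change -1.35) and 4 of them with DESeq2, and their summed level was 16762 and 7312 CPM in control and 9863 and 2151 CPM in mutant libraries. Of 7 immature neuron markers, 2 fell with edgeR (Stmn4 and Dcx) and 3 with DESeq2. Of 4 ciliated cell markers, 3 fell with edgeR (Ccdc40, Foxj1 and Tekt1) and 2 with DESeq2. Progenitor markers rose in 2 of 8 with both tools (Kit, 1.98-fold, edgeR adjusted p = 0.00249, and Hes6, 1.56-fold, edgeR adjusted p = 0.0337). Cell cycle genes rose in 6 of 12 with edgeR and 5 with DESeq2 (median 0.83), with Top2a 1.98-fold higher (edgeR adjusted p = 5.93e-07). None of 10 sustentacular markers passed in edgeR (median 0.23, 1 at an unadjusted p under 0.05), where DESeq2 called Cyp2g1 and Cbr2 higher. None of 6 housekeeping genes passed with either tool (median 0.04, 0 at an unadjusted p under 0.05). Of 6 fibroblast markers, Col1a1 and Col1a2 fell with both tools, and Dcn had a log2 fold change of 0.68 that passed in DESeq2 (higher) and not in edgeR (adjusted p = 0.115). Of 6 ensheathing glia markers Fabp7 fell with both tools, while none of the 9 leukocyte and 6 endothelial markers tested passed in edgeR (0 at an unadjusted p under 0.05), nor did the 2 leukocyte markers and 1 endothelial marker with an adjusted p in DESeq2. The part of these other cell types in the higher levels of the 9 stem cell markers was not tested.

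Skin cells would also carry the Keratin 5 transgene. The 10 squamous keratinocyte markers found in the files summed to 9.07 and 12.9 CPM in control and 18.5 and 12.2 CPM in mutant libraries, compared with 1018 and 617 CPM and 1469 and 813 CPM for Krt5 alone. Of these 10, Cnfn and Dsg1a were at 0 in all libraries but mutant 1, and none of the 5 tested passed in edgeR (0 at an unadjusted p under 0.05), while DESeq2 gave none of them an adjusted p. The part of skin cells, or of other cells with an active transgene, in the levels of the 9 markers was not tested. Other cell types also moved with experimental group. Sustentacular markers summed to 8118 and 10962 CPM in group 1 and to 17230 and 21236 CPM in group 2, mature neuron markers to 16762 and 9863 CPM and 7312 and 2151 CPM, and fibroblast markers to 939 and 650 CPM and 288 and 489 CPM. Their part in the difference of the keratins from Trp63 and Egfr between experimental groups was not tested.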

How the data were processed

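RNA-seq libraries were made by the authors from ribosomal RNA-depleted total RNA of sorted cells. Single-end reads of 50 bases were cleared of ribosomal sequence with Bowtie2 2.0.6, quality filtered, aligned to mm10 with TopHat2 2.0.7 and counted per gene symbol with HTSeq (intersection-nonempty mode). The deposited values are raw read counts. The HTSeq version, its strand setting and the annotation are not given in the sources used here. The 5 tally lines that close each HTSeq file entered neither library sizes nor tests.

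The 9 markers and the gene lists were chosen with earlier results of these data known. Genes above 1 CPM in at least 2 libraries (15438) were fitted in edgeR 4.0.16 (R 4.3.3) with genotype and experimental group, TMM factors and tagwise dispersions, following the study's methods except that its printed code kept the tally lines as genes. Likelihood-ratio tests were adjusted over all genes by the Benjamini-Hochberg method (threshold 0.05), and SE are Wald errors. Ratios within an experimental group used log2 CPM scaled by the TMM factors, with a prior count of 2, and carry no test. They therefore differ from ratios of the printed CPM, which leave these factors out. Genes named from a list are those past the threshold, at most 4 with the smallest p, and a fixed set. The result of 1 listed gene is not reported here. The experimental group pairs the libraries by the labels, and deviations of same-numbered libraries correlated at 0.522 across genes. The fit was tested on simulated counts drawn without a difference between experimental groups. The data do hold such a difference, so this test does not cover it. With 2 against 2 libraries, an exact permutation test of the labels cannot go below p = 0.333. No pair of libraries agreed within sampling noise (chi-square per degree of freedom of counts 47 to 278). Lengths and coordinates are from GENCODE for mm10, in which 98.01% of symbols matched. Alternatives included edgeR's quasi-likelihood test, DESeq2 1.42.0 (genes without an adjusted p left out of its counts), other scaling and filters, thinned counts, background subtraction and libraries left out.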

Additional observations from a re-analysis of the deposited data

Results flagged for a closer look

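Mutant 1 held 39.4% of its uniquely aligned reads outside annotated genes, compared with 23.8% and 24.9% in the control libraries and 22.1% in mutant 2. This share was singled out because these reads enter no gene count and exceed the level in both controls. Subtracting a background estimated from otherwise silent genes moved the genotype log2 fold change of each of the 9 markers by at most 0.03 and changed 0 of their calls, with Krt15 at 1.13 and Egfr at 0.58. Between experimental groups it cost Trp63 its call (edgeR adjusted p = 0.0567, within 0.00184 to 0.376 over the alternatives).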

How the results depend on the processing

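Of 135 values of the 9 markers in the genotype comparison over 15 alternatives, 114 were counted as unchanged. Of the rest, 12 lost a call, 4 gained one and 5 changed sign. Only 13 of the alternatives carried a test, and there unchanged means the same side of the threshold and the same sign. The others were the ratios within each experimental group alone, which kept their sign and were counted as unchanged without a test. Without mutant 1 and without the replicate block, the log2 fold change was -0.04 for Krt5, -0.18 for Krt14, -0.09 for Krt17 and -0.03 for Icam1, and without control 2 it was -0.04 for Icam1. None of these 5 values passed. The count of markers called higher was 2 in the model as reported, 1 with edgeR's quasi-likelihood test, 6 with DESeq2, 1 with the HTSeq tally lines kept, 0 without the replicate block that pairs the libraries and 0 with any library left out. Over all genes, 117 were higher with the quasi-likelihood test. Without the block 6 were higher and 0 lower by edgeR (348 at an unadjusted p under 0.05), and with a library left out as well 3, 19, 27 or 33 were higher and 0 to 5 lower. In these fits the lone library of a genotype is assumed to vary like the others. Within each experimental group alone, all 9 ratios stayed positive.

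Of 72 values of the 8 markers called between experimental groups, 58 kept the call and 14 lost it. Perp passed in none of its 9, and 0 of all 81 values changed sign. Without the genotype term, 1544 genes were higher and 910 lower in group 2, and 0 markers were higher and 0 lower by edgeR (5 at an unadjusted p under 0.05). Without a filter on low counts 1 marker was higher and 3 were lower, and 1 was higher with the tally lines kept or with the background subtracted from mutant 1. Removing the filter moved the median log2 fold change of all genes by 0.15, to 0.14, beside 0.46 for the markers. The cause of these changes was not tested. Per length of the longest transcript in place of merged exons, the control mean rose from 25 to 39.0 CPM per kb for Trp63 and from 11.4 to 19.6 for Icam1. With 2 libraries per genotype the SE set what can be resolved, and the interaction of genotype with experimental group has no test.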
